A study of Homo sapiens with 9 samples.

Results

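The genes described here are 42 genes of glycolysis, glycogen turnover and energy transfer, chosen as a named list of muscle isoforms together with their paralogs. All 42 were matched by symbol among the 60676 gene identifiers of the deposited tables. They were divided into 14 muscle isoforms, 16 paralogs used widely or in other tissues, and 12 enzymes and kinases that muscle shares with most tissues. All 42 passed the filter on low counts. The cells were RD, an established line from a human embryonal rhabdomyosarcoma, a childhood tumour with features of immature skeletal muscle. The libraries with shTRPS1#1 (n = 3) and with shTRPS1#2 (n = 3) carried a short hairpin RNA against TRPS1, a zinc finger repressor of the GATA type, and the shNT libraries (n = 3) carried a non-targeting hairpin. All 9 libraries came from this single cell line under 1 µM doxycycline, which covered 2 days of growth in 10% fetal bovine serum and 10 days of differentiation in 2% horse serum, so doxycycline and differentiation medium were common to every group. The series title asks how TRPS1 bears on myogenic differentiation.

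Skeletal muscle makes its ATP in bursts and keeps dedicated isoforms of several enzymes for this purpose. Creatine kinase buffers ATP with phosphocreatine, glycogen phosphorylase releases glucose units from glycogen, and glycolysis turns them into pyruvate and lactate. During myogenesis, many of these steps pass from an isoform found in most cells or in brain to an isoform of mature muscle: from CKB to CKM, from PYGB and PYGL to PYGM, from PGAM1 to PGAM2 and from ENO1 to ENO3. The myogenic factors MYOD1 and myogenin bind E-box sequences near such genes. AMP deaminase and AMP-activated kinase (AMPK) sense and adjust the adenylate pool, and myoglobin binds oxygen. Pyruvate dehydrogenase kinases (PDKs) inhibit pyruvate dehydrogenase, the mitochondrial enzyme that turns pyruvate into acetyl-CoA.

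Library totals ran from 21965744 to 23289062 counts. TRPS1 itself fell to 78.6% of its shNT level with shTRPS1#1 and to 78.1% with shTRPS1#2, as estimated from the fitted fold changes (log2 fold changes -0.35 ± 0.04 and -0.36 ± 0.04, SE). The libraries carried the defining markers of skeletal myogenic cells: the summed level of 10 such genes, among them DES, MYOD1 and MYOG, was 1353 to 1424 RPKM (reads scaled to gene length and to library total) with shTRPS1#1, 1307 to 1341 RPKM with shTRPS1#2 and 1143 to 1210 RPKM with shNT. Within that list MYF5 was at 0 in most libraries and MYF6 was at or near 0. Of the 8 markers tested, 7 rose with shTRPS1#1 (87.5%) and 6 with shTRPS1#2 (75.0%), beside 7.1% and 9.01% of all genes tested. Of these markers 0 fell (edgeR, with 0 lower at an unadjusted p under 0.05 and 0 under DESeq2 or limma). Summed neuronal markers stood at 36.0 to 37.8, 40.7 to 41.6 and 35.0 to 37.4 RPKM in the same order of groups, cardiac and smooth muscle markers at up to 5.90 RPKM, and adipocyte and hepatocyte markers at up to 0.365 RPKM, with MYOCD and SERPINA1 at 0 in every library. In these bulk libraries, a larger share of cells of 1 type and more RNA per cell cannot be told apart.

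With both hairpins the muscle isoforms CKM and GYS1, the phosphorylase PYGL and the kinase PDK1 rose, and with shTRPS1#2 a further set of muscle isoforms rose: PGAM2, AMPD1, ENO3 and MB. A gene was called at an edgeR adjusted p under 0.05 over 17014 genes tested, from fold changes of a fit to all 9 libraries. Of the 42 genes, 4 rose (9.52%) and 1 fell (2.38%) with shTRPS1#1, where 7.1% of all genes tested were higher, 6.33% lower and 13.4% called in either direction. With shTRPS1#2, 10 rose (23.8%) and 4 fell (9.52%), where 9.01% of all genes were higher, 9.87% lower and 18.9% called. The share of falls with shTRPS1#2 and both shares with shTRPS1#1 lay near those of all genes, and the share of rises with shTRPS1#2 lay above. The median log2 fold change of the 42 genes was -0.0028 with shTRPS1#1 and 0.048 with shTRPS1#2, beside 0.0011 and -0.0056 over all genes tested. Called higher with both hairpins were 4 genes (9.52%), beside 3.46% of all genes, and 0 were called lower with both, beside 2.37% of all genes. The contrasts share their shNT libraries. Neither fit called any of the 42 genes in opposite directions, and 27 were called with neither hairpin.

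Among the 14 muscle isoforms, 2 rose with shTRPS1#1 (14.3%) and 6 with shTRPS1#2 (42.9%), beside 7.1% and 9.01% of all genes tested. With either hairpin 0 fell, beside 6.33% and 9.87% of all genes (median log2 fold changes of the class 0.08 and 0.22). Among the 16 paralogs, 1 rose with shTRPS1#1 (6.25%) and 3 with shTRPS1#2 (18.8%), and 0 fell (medians -0.02 and 0.01). Among the 12 shared enzymes and kinases, PDK1 rose with both hairpins (8.33% in each case). In that class 1 gene fell with shTRPS1#1 (8.33%) and 4 with shTRPS1#2 (33.3%, medians -0.07 and -0.10). With shTRPS1#1 these shares rest on 1 or 2 genes a class, and the 2 muscle isoforms were CKM and GYS1. GYS1 is named for muscle but is also used in other tissues. Without it, CKM was the only muscle isoform called with both hairpins. At an unadjusted p under 0.05, edgeR had 0 muscle isoforms and 1 paralog lower with each hairpin, and DESeq2 and limma called 0 of either class lower. The skeletal myogenic markers above also rose against shNT, with median log2 fold changes of 0.27 with shTRPS1#1 and 0.17 with shTRPS1#2. Between the hairpins 5 of the 8 markers tested were not called. With shTRPS1#2, 1 was higher (12.5%) and 2 were lower (25.0%) than with shTRPS1#1, beside 8.9% and 10.7% of all genes tested. The part of the markers in these changes was not tested.

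**Figure D1:**
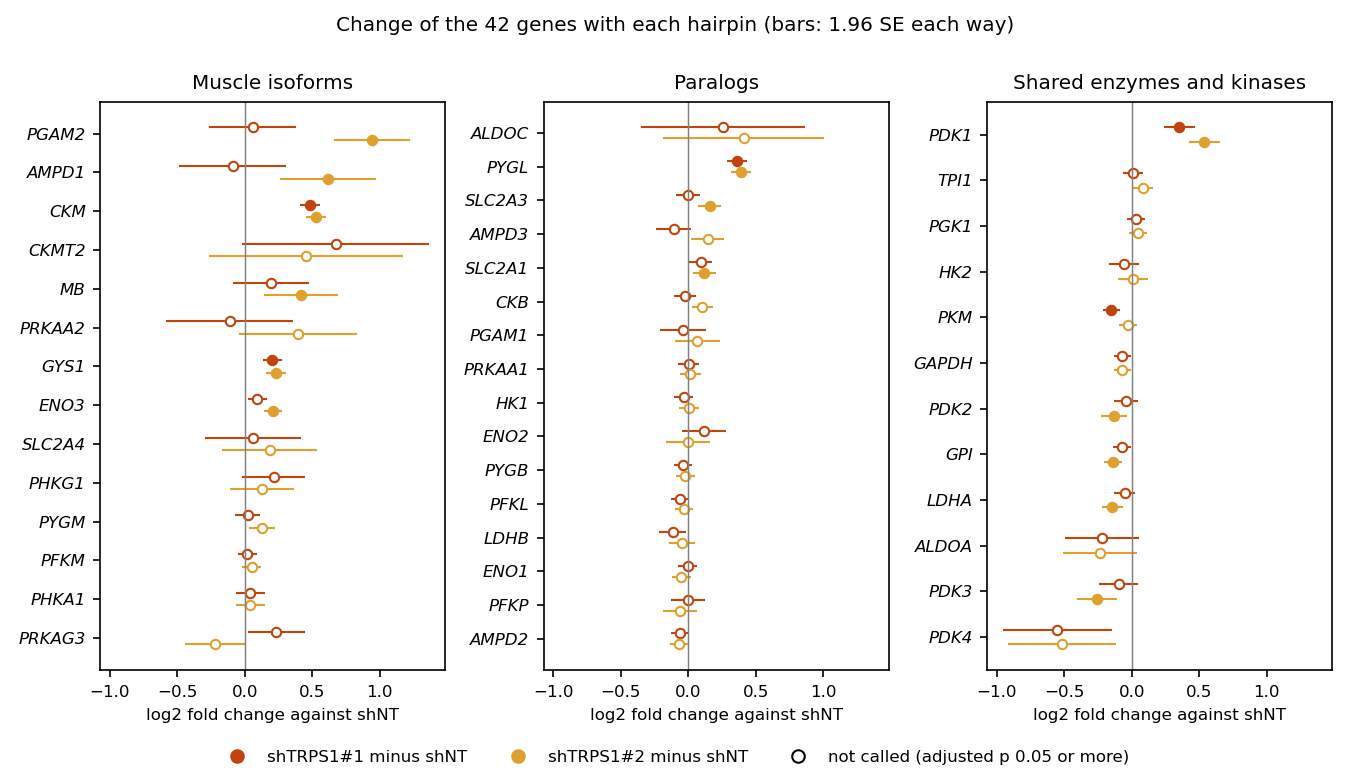
Log2 fold change against shNT (horizontal axis) of the 42 genes in 3 classes, with shTRPS1#1 above shTRPS1#2 for each gene. Filled points are called, open points are not, and bars span 1.96 SE each way. In the muscle isoform panel CKM and GYS1 are filled for both hairpins, and every filled point there lies right of 0.

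The genes called with both hairpins and PGAM2, which had the largest change among the 42 genes called, are given here with the 250 bases before their transcript start, since a shared E-box content would be visible there. The sequences are RefSeq's on GRCh38.p14, each read 5′ to 3′ along the gene's own strand, with every match to CANNTG, the E-box consensus, in capitals. They are chr19:45322876-45323125 (minus strand) for CKM, chr19:48993310-48993559 (minus strand) for GYS1, chr14:50944484-50944733 (minus strand) for PYGL, chr2:172555123-172555372 (plus strand) for PDK1 and chr7:44065568-44065817 (minus strand) for PGAM2.
CKM: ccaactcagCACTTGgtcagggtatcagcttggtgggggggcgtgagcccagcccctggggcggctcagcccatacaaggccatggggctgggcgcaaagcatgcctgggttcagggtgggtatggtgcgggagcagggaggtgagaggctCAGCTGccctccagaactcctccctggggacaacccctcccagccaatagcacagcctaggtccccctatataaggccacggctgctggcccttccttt
GYS1: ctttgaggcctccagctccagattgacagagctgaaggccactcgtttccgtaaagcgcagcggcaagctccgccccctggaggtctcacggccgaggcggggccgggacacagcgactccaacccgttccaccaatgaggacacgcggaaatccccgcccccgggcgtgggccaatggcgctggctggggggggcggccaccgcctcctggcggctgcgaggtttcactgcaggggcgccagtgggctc
PYGL: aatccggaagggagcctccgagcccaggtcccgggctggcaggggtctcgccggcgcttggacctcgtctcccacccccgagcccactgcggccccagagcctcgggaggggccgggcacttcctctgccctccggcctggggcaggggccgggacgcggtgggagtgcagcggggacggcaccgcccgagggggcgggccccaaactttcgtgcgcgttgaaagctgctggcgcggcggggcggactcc
PDK1: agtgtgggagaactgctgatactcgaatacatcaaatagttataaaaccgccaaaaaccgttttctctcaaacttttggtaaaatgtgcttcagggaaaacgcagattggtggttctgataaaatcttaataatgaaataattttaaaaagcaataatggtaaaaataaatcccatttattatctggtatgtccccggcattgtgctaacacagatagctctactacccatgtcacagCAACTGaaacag
PGAM2: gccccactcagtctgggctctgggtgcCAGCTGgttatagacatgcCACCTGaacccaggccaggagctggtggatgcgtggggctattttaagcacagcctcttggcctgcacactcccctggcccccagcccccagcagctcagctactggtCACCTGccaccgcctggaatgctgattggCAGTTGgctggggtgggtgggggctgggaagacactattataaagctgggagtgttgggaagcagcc
The CKM window holds 2 E-boxes, of which the CAGCTG at 99 bases before the start is a type that MYOD1 is known to bind. The PGAM2 window holds 4 E-boxes, including a CAGCTG at 223 bases before the start, PDK1 holds a CAACTG at 12 bases before the start, and the windows of GYS1 and PYGL hold 0. A promoter window was found for 39 of the 42 genes. CANNTG, whose reverse complement is itself of the same form, occurred in 10 of 12 muscle isoform windows (83.3%), 7 of 15 paralog windows (46.7%), 7 of 12 windows of shared enzymes (58.3%) and 62.2% of all 27303 windows in the RefSeq table. The narrower CAGCTG, a subset of CANNTG that reads the same on both strands, occurred in 5 of 12 muscle isoforms (41.7%), 1 of 15 paralogs (6.67%), 0 of 12 shared genes and 13.8% of all windows. The muscle isoforms with it were CKM, CKMT2, PGAM2, PHKA1 and PRKAG3, of which CKM and PGAM2 were called with at least 1 hairpin. GATA, the core that GATA factors read, on either strand, occurred in 5 of 12 muscle isoforms (41.7%), 3 of 15 paralogs (20.0%), 5 of 12 shared genes (41.7%) and 46.6% of all windows. ACGTG, the core of hypoxia response elements, on either strand, occurred in 7 of 12 shared enzymes (58.3%), 3 of 15 paralogs (20.0%), 1 of 12 muscle isoforms (8.33%) and 18.6% of all windows, and it overlaps CANNTG wherever the E-box is CACGTG. These matches describe letters in a window and not bound sites.

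Muscle creatine kinase rose with both hairpins, by more than any other of the 42 genes called with shTRPS1#1. CKM (ENSG00000104879, chromosome 19, 45306414 to 45322977, minus strand) stood at 90.2, 89.5 and 89.6 RPKM with shTRPS1#1 and at 94.7, 95.6 and 90.0 RPKM with shTRPS1#2, against 62.0, 63.9 and 68.0 RPKM with shNT. Every library with a hairpin against TRPS1 was above every shNT library. This was a 1.40-fold level with shTRPS1#1 (log2 fold change 0.48 ± 0.04, SE, edgeR adjusted p = 1.23e-14) and a 1.44-fold level with shTRPS1#2 (0.53 ± 0.04, 6.12e-16). The hairpins did not differ past the threshold for CKM (0.04 ± 0.04, 95% interval -0.03 to 0.12). The brain isoform CKB, a cytosolic paralog, averaged 78.0 ± 2.42 RPKM with shTRPS1#1, 86.1 ± 2.65 with shTRPS1#2 and 79.9 ± 6.58 with shNT (SD, n = 3 each). Its log2 fold changes of -0.02 and 0.10 against shNT were not called (edgeR adjusted p = 0.783 and 0.0588), and it was higher with shTRPS1#2 than with shTRPS1#1 (0.13 ± 0.04, edgeR adjusted p = 0.0158). With shTRPS1#2, CKB was called in 6 of 13 alternatives. Per length, CKM was above CKB in every library with a hairpin against TRPS1 and below it in every shNT library. In counts not scaled to length, CKB was above CKM in every library, with means of 4217 against 3169 with shTRPS1#1 and 4557 against 3229 with shTRPS1#2. The mitochondrial creatine kinase of muscle, CKMT2, was close to the limit of detection, at 13 to 19 counts with shTRPS1#1, 9 to 17 with shTRPS1#2 and 7 to 15 with shNT, and was not called.

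Of the genes that store and mobilise glycogen, the synthase GYS1 and the phosphorylase PYGL rose with both hairpins. GYS1, the muscle glycogen synthase (ENSG00000104812, chromosome 19, 48968125 to 48993310, minus strand), stood at 37.9, 36.2 and 38.2 RPKM with shTRPS1#1 and at 39.3, 38.9 and 37.4 RPKM with shTRPS1#2, against 33.6, 31.4 and 33.2 RPKM with shNT. The groups did not overlap, and the log2 fold changes were 0.20 ± 0.04 (edgeR adjusted p = 2.76e-05) and 0.23 ± 0.04 (2.22e-06). PYGL, the phosphorylase named for liver (ENSG00000100504, chromosome 14, 50857891 to 50944736, minus strand), stood at 24.7, 26.2 and 24.8 RPKM with shTRPS1#1 and at 26.6, 25.0 and 26.8 RPKM with shTRPS1#2, against 19.5, 20.0 and 20.1 RPKM with shNT. Again no hairpin library reached down to an shNT library (0.36 ± 0.04, edgeR adjusted p = 1.69e-10, and 0.39 ± 0.04, 1.06e-11). Its muscle paralog PYGM, the isoform missing in McArdle disease, was not called. PYGM averaged 8.94 ± 0.204, 9.72 ± 0.517 and 8.88 ± 0.0556 RPKM with shTRPS1#1, shTRPS1#2 and shNT (SD, n = 3 each), with log2 fold changes of 0.02 and 0.13 (edgeR adjusted p = 0.864 and 0.0569). The brain isoform PYGB, at 30.8 to 31.9 RPKM in the 3 group means, was the most abundant of the phosphorylases per length and was not called. The phosphorylase kinase subunits of muscle, PHKA1 and PHKG1, which activate phosphorylase, had log2 fold changes of 0.04 and 0.21 with shTRPS1#1 and 0.04 and 0.13 with shTRPS1#2, and were not called. For PHKG1, 14.0% of the exon bases also lie in SUMF2 on the opposite strand, which fell with both hairpins (-0.11 and -0.14).

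**Figure D2:**
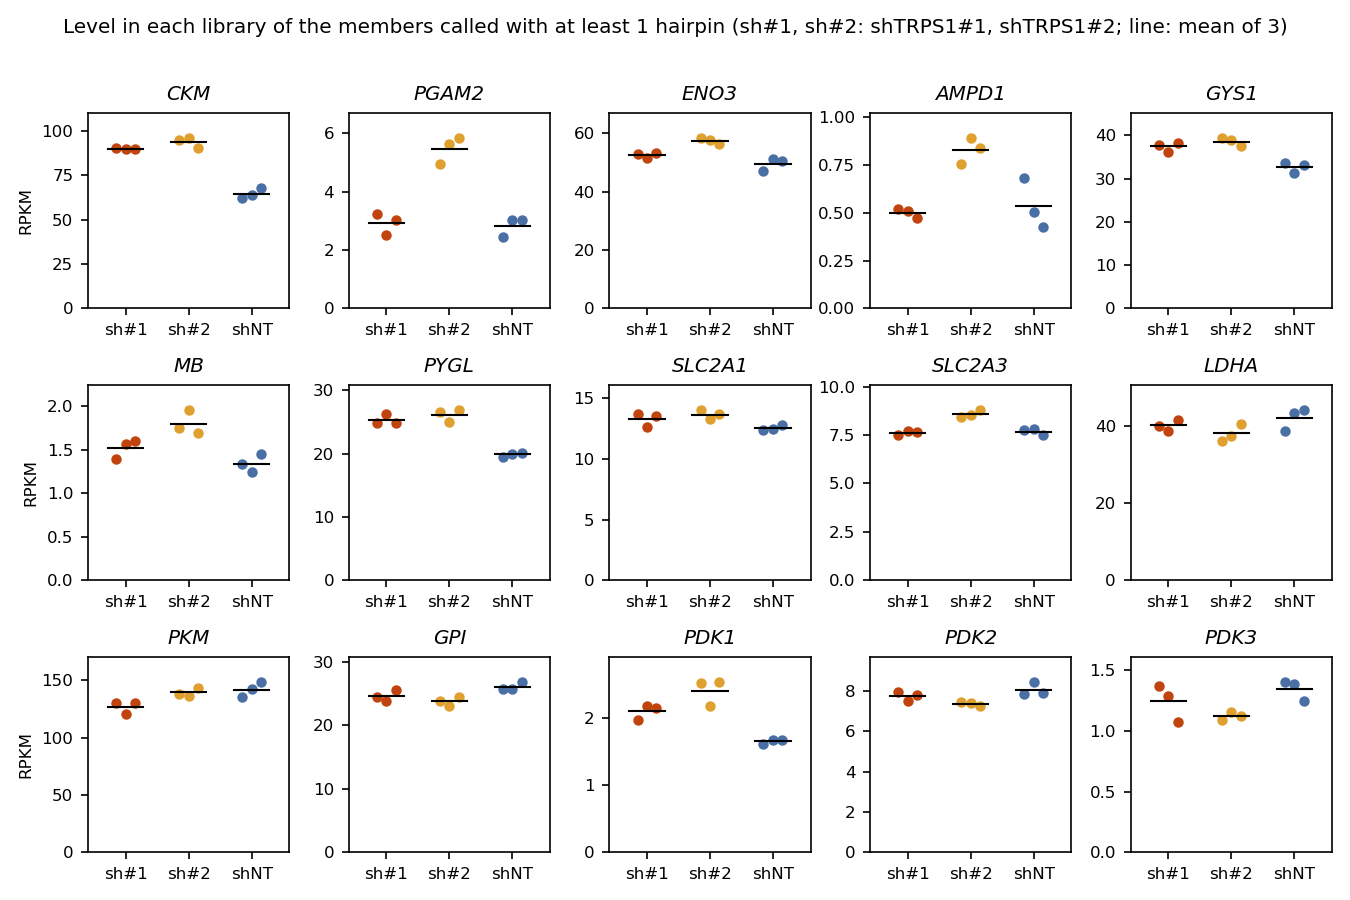
RPKM (vertical axis, from 0) in each library of the 15 genes called with at least 1 hairpin, with shTRPS1#1, shTRPS1#2 and shNT from left to right. Points are libraries and lines are means of 3. For CKM, GYS1, PYGL and PDK1 both hairpin groups lie above all shNT libraries, while for PGAM2 and AMPD1 the shTRPS1#2 libraries alone lie above the rest.

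A wider list of 19 other glycogen genes, 17 of them tested, was counted as well. It was chosen with earlier results of these data known, so its shares are descriptive. With shTRPS1#1, 6 rose and 0 fell (35.3% rose, median log2 fold change 0.07), and with shTRPS1#2, 8 rose and 0 fell (47.1%, median 0.13). Of all genes tested, 7.1% and 9.01% were higher and 6.33% and 9.87% lower in these contrasts. Called higher with both hairpins were 4 (23.5%), beside 3.46% of all genes tested. At an unadjusted p under 0.05, edgeR had 1 gene of the list lower with shTRPS1#1 and 0 with shTRPS1#2, and DESeq2 and limma called 0 lower. PPP1R3C, a scaffold that brings protein phosphatase to glycogen and so favours synthesis, averaged 10.2 ± 0.227 RPKM with shTRPS1#1, 12.7 ± 0.429 with shTRPS1#2 and 8.42 ± 0.852 with shNT (SD, n = 3 each; log2 fold changes 0.29 ± 0.06, edgeR adjusted p = 0.000568, and 0.59 ± 0.06, 7.45e-11). The related scaffold PPP1R3B (0.14 ± 0.05 and 0.40 ± 0.05) and glycogenin, GYG1, which primes a new glycogen particle (0.13 ± 0.05 and 0.30 ± 0.04), were called with both hairpins as well, and these 3 genes were higher with shTRPS1#2 than with shTRPS1#1. With shTRPS1#1 the calls of PPP1R3B and GYG1 were close to the threshold (edgeR adjusted p = 0.0495 and 0.0393) and were lost in 10 and 9 of 13 alternatives. Under DESeq2's test 3 of the list rose with shTRPS1#1. The branching enzyme GBE1 (0.05 and 0.04), PHKA2 (0.02 and 0.01) and PHKG2 (-0.06 and -0.02) were not called.

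**Figure D3:**
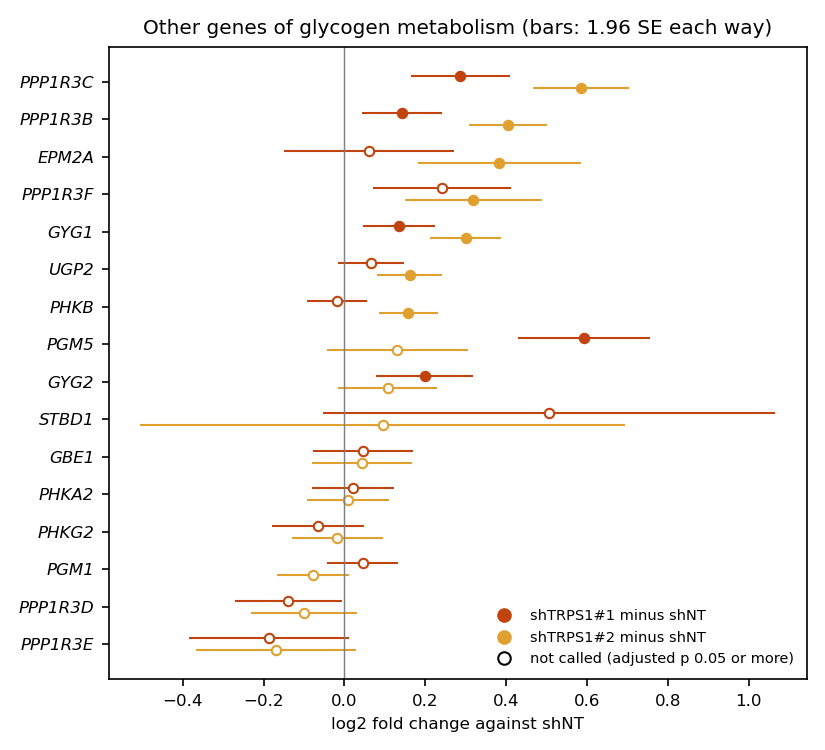
Log2 fold change against shNT (horizontal axis) of 16 of the 17 tested genes of glycogen metabolism outside the 42, with shTRPS1#1 above shTRPS1#2 for each gene. Filled points are called and bars span 1.96 SE each way. PPP1R3C, PPP1R3B and GYG1 are filled for both hairpins, and no filled point lies left of 0.

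In the lower part of glycolysis the muscle isoforms PGAM2 and ENO3 rose with shTRPS1#2. LDHA and PKM, which muscle also uses, were counted among the shared enzymes and did not rise. PGAM2, the muscle phosphoglycerate mutase (ENSG00000164708, chromosome 7, 44062727 to 44065587, minus strand), stood at 3.24, 2.52 and 3.03 RPKM with shTRPS1#1 and at 4.95, 5.63 and 5.82 RPKM with shTRPS1#2, against 2.46, 3.03 and 3.02 RPKM with shNT. The shTRPS1#2 libraries lay above all others, while the shTRPS1#1 and shNT libraries overlapped. PGAM2 thus stood at a 1.92-fold level with shTRPS1#2 (log2 fold change 0.94 ± 0.14, edgeR adjusted p = 1.06e-06), and its change with shTRPS1#1 was 0.06 ± 0.16 (0.884). These values rest on 47 to 61 counts a library with shTRPS1#1, 91 to 109 with shTRPS1#2 and 47 to 58 with shNT. Every exon base of PGAM2 also lies in DBNL, which runs on the opposite strand with 44231 counts over the 9 libraries and which itself rose with shTRPS1#2 (0.12 ± 0.03, edgeR adjusted p = 0.0094). The strand setting of the counting is not given in the sources used here, so reads of the pair cannot be told apart. The widely used paralog PGAM1 averaged 3.99 ± 0.232, 4.34 ± 0.424 and 4.14 ± 0.254 RPKM with shTRPS1#1, shTRPS1#2 and shNT and was not called, and 13 pseudogenes named after it held counts equal to 19.7% of its own. That figure leaves out any reads dropped for aligning to several places, whose treatment is not given.

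ENO3, the muscle enolase (ENSG00000108515, chromosome 17, 4948092 to 4957131, plus strand), is an order of magnitude more abundant. It stood at 52.9, 51.4 and 53.1 RPKM with shTRPS1#1 and at 58.2, 57.8 and 56.4 RPKM with shTRPS1#2, against 47.0, 51.2 and 50.5 RPKM with shNT. Both hairpin groups lay above all shNT libraries, shTRPS1#1 by a narrow margin. ENO3 was called with shTRPS1#2 (log2 fold change 0.21 ± 0.03, edgeR adjusted p = 4.26e-06) and not with shTRPS1#1 (0.09 ± 0.03, 0.0632). ENO1, the enolase of most tissues, averaged 133 ± 6.76, 130.2 ± 4.77 and 135 ± 7.07 RPKM in shTRPS1#1, shTRPS1#2 and shNT libraries, and ENO2, the neuronal enolase, 2.81 ± 0.21, 2.61 ± 0.219 and 2.61 ± 0.155 RPKM (SD, n = 3 each). Neither was called. A small part of the ENO3 exons (2.6%) also lies in PFN1 on the opposite strand, which fell with both hairpins (-0.12 and -0.17).

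Of the glycolytic enzymes that muscle shares with other tissues, PKM fell with shTRPS1#1, and LDHA and GPI fell with shTRPS1#2. PKM, the pyruvate kinase of muscle and of most proliferating cells, which differ in splicing and are not separated here, stood at 129.9, 120.3 and 129.8 RPKM with shTRPS1#1 and at 138, 137 and 143 RPKM with shTRPS1#2, against 135, 142 and 148 RPKM with shNT. With shTRPS1#1 every library was below every shNT library (-0.15 ± 0.03, edgeR adjusted p = 0.000687), and with shTRPS1#2 the groups overlapped (-0.03 ± 0.03, 0.633). LDHA, the lactate dehydrogenase subunit of muscle, fell with shTRPS1#2 (-0.14 ± 0.04, edgeR adjusted p = 0.00602), although its libraries at 36.3, 37.6 and 40.8 RPKM overlapped those of shNT at 38.7, 43.5 and 44.2 RPKM. GPI, the isomerase at the second step of glycolysis, fell to 23.8, 22.9 and 24.4 RPKM with shTRPS1#2, against 25.7, 25.7 and 26.7 RPKM with shNT, without overlap (-0.14 ± 0.03, 0.00219). The corresponding values with shTRPS1#1 were -0.05 for LDHA and -0.07 for GPI, neither of them called. LDHB, the heart subunit, was at -0.12 and -0.05 and was not called, and GAPDH, with 546 ± 0.99, 552 ± 12.6 and 578 ± 25.6 RPKM the most abundant of the 42 genes, was at -0.07 with both hairpins, not called. TPI1 (0.01 and 0.09) and PGK1 (0.03 and 0.05) were not called.

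The committed step of glycolysis showed no call. The muscle phosphofructokinase PFKM averaged 19.5 ± 0.345, 20.1 ± 0.7 and 19.4 ± 0.871 RPKM with shTRPS1#1, shTRPS1#2 and shNT, the liver isoform PFKL 15.4 ± 0.133, 15.9 ± 0.421 and 16.2 ± 0.211, and the platelet isoform PFKP 3.98 ± 0.324, 3.87 ± 0.203 and 4.03 ± 0.0194 (SD, n = 3 each). Their log2 fold changes lay between -0.06 and 0.05. For PFKM the 95% interval of the change was -0.05 to 0.09 with shTRPS1#1 and -0.02 to 0.12 with shTRPS1#2. The aldolases could be measured only at low counts. ALDOA, the muscle aldolase, had 61 to 92 counts a library, and 42.3% of its exon bases are shared with a gene model on the same strand, AC093512.2, while the brain isoform ALDOC had 11 to 23 counts a library. Neither was called.

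At the entry of glucose, the widely used transporters rose slightly with shTRPS1#2 and the insulin-responsive transporter of muscle stayed low. SLC2A3, a high-affinity glucose transporter, stood at 7.49, 7.71 and 7.63 RPKM with shTRPS1#1 and at 8.44, 8.54 and 8.77 RPKM with shTRPS1#2, against 7.75, 7.80 and 7.50 RPKM with shNT. The shTRPS1#2 libraries were above all others (0.16 ± 0.04, edgeR adjusted p = 0.00746), and with shTRPS1#1 the change was -0.00 ± 0.04. SLC2A1, the transporter of most dividing cells, was just past the threshold with shTRPS1#2 (0.12 ± 0.04, edgeR adjusted p = 0.0485), a call lost in 9 of 13 alternatives, and was at 0.09 ± 0.04 with shTRPS1#1 (0.174). SLC2A4, the transporter that insulin brings to the muscle surface, averaged 0.478 ± 0.0268, 0.526 ± 0.0648 and 0.462 ± 0.0488 RPKM with shTRPS1#1, shTRPS1#2 and shNT and was not called. Of the hexokinases, HK1 averaged 22.6 ± 0.538, 23.4 ± 0.497 and 23.3 ± 0.987 RPKM and HK2, the form that muscle uses with insulin, 3.96 ± 0.078, 4.20 ± 0.0947 and 4.16 ± 0.0351 RPKM, and neither was called.

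Of the pyruvate dehydrogenase kinases, PDK1 rose with both hairpins, and PDK2 and PDK3 fell with shTRPS1#2. PDK1 (ENSG00000152256, chromosome 2, 172555373 to 172608669, plus strand) stood at 1.98, 2.18 and 2.15 RPKM with shTRPS1#1 and at 2.52, 2.19 and 2.54 RPKM with shTRPS1#2, against 1.62, 1.68 and 1.68 RPKM with shNT. All hairpin libraries were above all shNT libraries (0.35 ± 0.06, edgeR adjusted p = 6.74e-06, and 0.54 ± 0.06, 1.84e-10). PDK3 fell with shTRPS1#2, to 1.09, 1.16 and 1.13 RPKM against 1.40, 1.39 and 1.25 RPKM with shNT (-0.26 ± 0.07, edgeR adjusted p = 0.00887), and was at -0.10 ± 0.07 with shTRPS1#1 (0.455). PDK2 was just past the threshold with shTRPS1#2 (-0.13 ± 0.05, edgeR adjusted p = 0.0437), a call lost in 11 of 13 alternatives, and 38.6% of its exon bases also lie in SAMD14 on the opposite strand. PDK4, the kinase that rises in fasted muscle, stood at 0.245, 0.237 and 0.340 RPKM with shTRPS1#1 and at 0.290, 0.316 and 0.246 RPKM with shTRPS1#2, against 0.376, 0.431 and 0.412 RPKM with shNT. Its libraries did not overlap those of shNT, but at 24 to 44 counts a library the changes of -0.55 ± 0.21 and -0.52 ± 0.21 did not pass the threshold (edgeR adjusted p = 0.0685 and 0.0723).

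Of the AMP deaminases, AMPD1 alone was called against shNT, with shTRPS1#2. AMPD1, the AMP deaminase of muscle (ENSG00000116748, chromosome 1, 114673090 to 114695618, minus strand), stood at 0.519, 0.509 and 0.474 RPKM with shTRPS1#1 and at 0.753, 0.888 and 0.841 RPKM with shTRPS1#2, against 0.682, 0.505 and 0.424 RPKM with shNT. The shTRPS1#2 libraries lay above all others (0.62 ± 0.18, edgeR adjusted p = 0.0107), and the shTRPS1#1 libraries lay within the shNT range (-0.09 ± 0.20, 0.848). These levels rest on 30 to 61 counts a library, and AMPD1 dropped below the threshold without shNT replicate 3 (edgeR adjusted p = 0.103), without shTRPS1#2 replicate 2 (0.0539) and under DESeq2 (0.0574). AMPD2, the isoform of most tissues, at 23.5 to 24.8 RPKM in the group means, and AMPD3, the erythrocyte isoform, at 2.78 to 3.34 RPKM, were not called against shNT. AMPD3 was higher with shTRPS1#2 than with shTRPS1#1 (0.25 ± 0.06, edgeR adjusted p = 0.00317). Of 11 tested genes of creatine and adenylate handling outside the 42, AK1, the adenylate kinase of muscle cytosol, rose with both hairpins, at 10.8 ± 0.262 RPKM with shTRPS1#1 and 12.9 ± 0.149 with shTRPS1#2, against 9.32 ± 0.431 with shNT (0.23 ± 0.06, edgeR adjusted p = 0.0024, and 0.47 ± 0.05, 1.94e-09). The other 10 were called with neither, so 9.09% of the list rose with each hairpin, beside 7.1% and 9.01% of all genes.

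None of the AMPK subunits among the 42 genes, PRKAA1, PRKAA2 and PRKAG3, was called against shNT. PRKAA1, the catalytic subunit of most tissues, was at 13.1 to 13.3 RPKM in all 3 group means, with log2 fold changes of 0.00 and 0.01, and the muscle-enriched catalytic subunit PRKAA2 was at 21 to 40 counts a library (-0.11 ± 0.24 and 0.40 ± 0.22). PRKAG3, the gamma subunit of fast glycolytic muscle, stood at 2.11, 2.22 and 1.96 RPKM with shTRPS1#1 and at 1.598, 1.28 and 1.76 RPKM with shTRPS1#2, against 1.72, 1.94 and 1.73 RPKM with shNT. The hairpins lay on either side of shNT and neither change was called (0.23 ± 0.11 and -0.22 ± 0.11, edgeR adjusted p = 0.157 and 0.199). Between the hairpins, PRKAG3 was lower with shTRPS1#2 than with shTRPS1#1 (-0.45 ± 0.11, edgeR adjusted p = 0.00178). Of 9 other AMPK genes, 2 rose (22.2%) and 0 fell with each hairpin, where 7.1% of all genes were higher with shTRPS1#1 and 9.01% with shTRPS1#2 (edgeR, with 0 lower with shTRPS1#1 and 1 with shTRPS1#2 at an unadjusted p under 0.05, and 0 under DESeq2 or limma). PRKAB2, the beta subunit most used in skeletal muscle, rose with both, at 15.1 ± 0.348 RPKM with shTRPS1#1 and 15.2 ± 0.174 with shTRPS1#2, against 12.2 ± 0.26 with shNT (0.32 ± 0.04 in each contrast, edgeR adjusted p = 1.38e-08 and 1.03e-08).

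Myoglobin, MB, the oxygen store of muscle, was expressed at a low level. It averaged 1.53 ± 0.115 RPKM with shTRPS1#1 and 1.80 ± 0.137 with shTRPS1#2, against 1.34 ± 0.10 with shNT (SD, n = 3 each). The shTRPS1#2 libraries were above the others (0.42 ± 0.14, edgeR adjusted p = 0.0282), from 60 to 93 counts a library, while shTRPS1#1 was at 0.19 ± 0.14 (0.458). MB missed the threshold without shNT replicate 1 (edgeR adjusted p = 0.0633), shNT replicate 2 (0.115) or shTRPS1#2 replicate 2 (0.136), and under DESeq2 (0.107). Genes of oxygen sensing and oxidative metabolism outside the 42 were counted too. The hypoxia list holds targets outside glycolysis and also the factors HIF1A, EPAS1 and HIF3A. Of its 14 tested genes, 2 were higher (14.3%) and 2 lower (14.3%) with shTRPS1#1, beside 7.1% and 6.33% of all genes tested. With shTRPS1#2, 4 were lower (28.6%) and 0 higher, beside 9.87% and 9.01% of all genes (at an unadjusted p under 0.05 edgeR had 1 higher, and DESeq2 and limma called 0 higher). EPAS1, an oxygen-regulated transcription factor, was the 1 gene of that list that fell with both, to 2.47 ± 0.0122 RPKM with shTRPS1#1 and 2.54 ± 0.188 with shTRPS1#2, against 3.36 ± 0.0962 with shNT (-0.43 ± 0.06, edgeR adjusted p = 3.87e-07, and -0.41 ± 0.06, 1.31e-06). Of 8 tested regulators of oxidative metabolism, 1 was higher and 1 lower with shTRPS1#1 and 1 was higher with shTRPS1#2 (12.5% in each case). These single genes lie near the shares of all genes, 7.1% and 6.33% with shTRPS1#1 and 9.01% higher with shTRPS1#2.

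The muscle isoform's share of its enzyme family was compared in 9 families, as its RPKM over the summed RPKM of the family within each library, which needs no scaling between libraries. For hexokinase, HK2, counted above among the shared enzymes, took the place of the muscle isoform. CKM made up 53.6%, 54.2% and 52.7% of cytosolic creatine kinase with shTRPS1#1 and 51.9%, 52.2% and 52.0% with shTRPS1#2, against 45.6%, 44.7% and 43.9% with shNT. ENO3 made up 27.3% to 28.6% of enolase with shTRPS1#1 and 29.02% to 30.95% with shTRPS1#2, against 25.9% to 27.2% with shNT. In these 2 families all 6 libraries with hairpins against TRPS1 lay above all 3 shNT libraries. For the log2 ratio of muscle isoform to paralogs the mean difference was 0.46 for creatine kinase and 0.18 for enolase (exact two-sided permutation test of 6 libraries against 3, p = 0.0238, the smallest this design allows, 0.107 after Benjamini-Hochberg adjustment over the 9 families). No family passed the threshold after adjustment. Even these 2 fully separated families could not pass it at this smallest p, so the adjusted test decides little here. The 6 libraries also pool hairpins that differed from each other for PGAM2 and AMPD1. For each hairpin alone, 3 libraries against 3 allow no p below 0.1.

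PGAM2 made up 38.1% to 46.5% of phosphoglycerate mutase with shTRPS1#1 and 53.5% to 58.8% with shTRPS1#2, against 35.8% to 43.6% with shNT, and AMPD1 1.78% to 1.92% of AMP deaminase with shTRPS1#1 and 2.67% to 3.17% with shTRPS1#2, against 1.51% to 2.34% with shNT. For both, all 3 shTRPS1#2 libraries lay above the shNT range (exact permutation p = 0.1 for 3 against 3), and so did 1 shTRPS1#1 library for PGAM2. PYGM went the other way with shTRPS1#1, at 13.6% to 14.0% of glycogen phosphorylase against 14.5% to 14.9% with shNT, and spanned 13.6% to 14.9% with shTRPS1#2. The shares of PFKM (48.1% to 51.2% over all 9 libraries), HK2 (14.6% to 15.8%), SLC2A4 (1.98% to 2.603%) and PRKAA2 (0.756% to 1.43%) overlapped between all groups. Per length, the muscle isoform was thus the larger part of its family in every shTRPS1#1 and shTRPS1#2 library for creatine kinase. The same held in every shTRPS1#2 library for phosphoglycerate mutase. In counts not scaled to length, CKB stood above CKM and PGAM1 above PGAM2 in all 9 libraries. The PGAM2 share also carries the limits given above for DBNL and for the PGAM1 pseudogenes. Reads that align to both PGAM1 and a pseudogene may have been dropped, since their treatment is not given. The PGAM1 level may therefore be too low and the PGAM2 share too high. The muscle isoform was a minor part of enolase, glycogen phosphorylase, AMP deaminase, glucose transporters and the AMPK catalytic subunit in all 9 libraries.

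**Figure D4:**
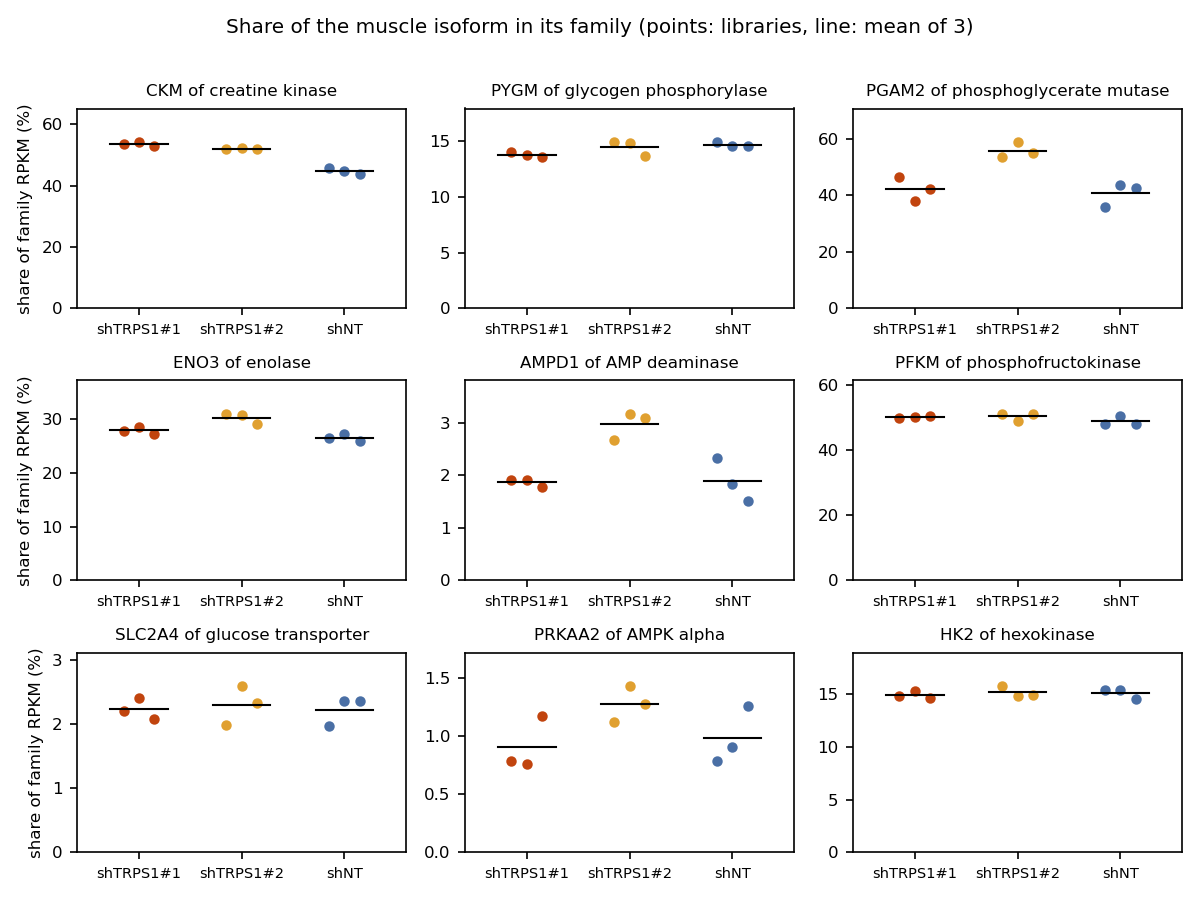
Share of the muscle isoform (HK2 for hexokinase) in the summed RPKM of its family (vertical axis, percent, from 0) in 9 enzyme families, with shTRPS1#1, shTRPS1#2 and shNT from left to right. Points are libraries and lines are means of 3. The creatine kinase and enolase panels have all 6 hairpin libraries above the 3 shNT libraries, at 51.9% to 54.2% against 43.9% to 45.6% for CKM.

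The hairpins were also compared with each other directly. Of the 42 genes, 8 were higher (19.0%) and 1 lower (2.38%) with shTRPS1#2 than with shTRPS1#1, where 8.9% of all genes were higher, 10.7% lower and 19.6% called in either direction. The genes higher with shTRPS1#2 were PGAM2 (0.88 ± 0.14), AMPD1 (0.71 ± 0.18), AMPD3 (0.25 ± 0.06), PDK1 (0.19 ± 0.06), SLC2A3 (0.16 ± 0.04), CKB (0.13 ± 0.04), PKM (0.12 ± 0.03) and ENO3 (0.12 ± 0.03), and PRKAG3 was the gene lower. CKM, GYS1 and PYGL, which rose with both hairpins, were not among them, with differences of 0.03 to 0.04 and 95% intervals within -0.04 to 0.12. TRPS1 itself was at -0.01 ± 0.05 in this contrast (edgeR adjusted p = 0.913).

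Per length, the levels of the 42 genes spanned more than 3 orders of magnitude. Averaged over the 9 libraries they ran from 0.14 RPKM for PRKAA2 and 0.208 RPKM for CKMT2 to 136 RPKM for PKM and 559 RPKM for GAPDH. The most abundant muscle isoforms were CKM (82.6 RPKM), ENO3 (53.2), GYS1 (36.2) and PFKM (19.6), followed by PYGM (9.18), and the other 9 lay below 5 RPKM. Of the 6 muscle isoforms called with shTRPS1#2, CKM, ENO3 and GYS1 were in the abundant group and PGAM2, MB and AMPD1 in the low group.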

How the data were processed

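Poly(A) RNA sequencing libraries, 3 in each of 3 groups, were made from 180 ng of total RNA with the NEBNext Ultra II chemistry (per the labels' protocols). The authors deposited whole-number read counts per gene and an RPKM table of 60676 identifiers in 9 libraries. Per the submitters' processing notes, the build was GRCh38 and the tools were featureCounts 1.6.5, STAR 2.7.2b and bcl2fastq 2.20.0.422. Annotation release, strand setting and treatment of multiply aligned reads are not given in the sources used. Checked against the counts, the deposited RPKM values equalled counts divided by gene length and library total (largest relative deviation 4.5e-14). Identifiers without a symbol (319) held 0.107% of counts.

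Counts were tested with edgeR 4.0.16 in R 4.3.3 (quasi-likelihood test, TMM factors, the package's expression filter at a minimum of 10 counts, 17014 genes kept, 1 mean per group over all 9 libraries, 6 residual degrees of freedom). Benjamini-Hochberg adjustment ran over all genes kept, and a gene was called at an adjusted p under 0.05. The SE was derived from the fold change and the F statistic (change over root F), so it is approximate, as are the intervals of 1.96 SE. Levels are deposited RPKM, as mean ± SD. Ratios of muscle isoform to paralogs were taken per library on log2(RPKM + 0.1) and tested with exact two-sided permutation tests. Alternatives, described in the closing section, used DESeq2 1.42.0, limma 3.58.1 on log2(RPKM + 0.1), other scalings, no filter, a replicate block and each library left out. The tests were checked on simulated data.

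The labels number libraries 1 to 3 in each group without naming separate cultures, and the p-values therefore reflect the spread among libraries that may be technical repeats. No library repeated another of its group: chi-square per degree of freedom between them was 1.26 to 2.65. Coordinates and exon overlaps were taken from GENCODE release 29 (GRCh38), not necessarily the annotation used by the authors. Promoter windows are RefSeq's, 250 bases before 1 transcript start a gene, and other starts exist. The 42 genes, the classes and the lists were chosen with earlier results of these data known. Named genes outside the 42 were those called in both contrasts against shNT with 1 sign, at most 5 a list, besides genes named for their overlap with one of the 42 and single examples of a list that were not called, chosen after their values were seen. The values of 1 gene of the glycogen list, which is kept in that list's counts, are not reported here.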

Additional observations from a re-analysis of the deposited data

Results flagged for a closer look

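For 9 of the 42 genes the effect of shTRPS1#2 differed from that of shTRPS1#1 in a direct test (edgeR adjusted p under 0.05 over all genes tested, where 19.6% of all genes did so). The differences in log2 fold change, shTRPS1#2 minus shTRPS1#1, were 0.88 for PGAM2, 0.71 for AMPD1, 0.25 for AMPD3, 0.19 for PDK1, 0.16 for SLC2A3, 0.13 for CKB, 0.12 for PKM, 0.12 for ENO3 and -0.45 for PRKAG3. The calls of PGAM2, AMPD1, AMPD3, SLC2A3 and PRKAG3 held under all 13 alternatives. PDK1 and CKB lost theirs in 4 each, and ENO3 and PKM in 1 each, in both cases without shTRPS1#1 replicate 2 (edgeR adjusted p = 0.0538 and 0.0836). PGAM2 shares all its exon bases with DBNL on the opposite strand, which differed between the hairpins by 0.10. PRKAG3, the 1 gene of the 9 that was lower with shTRPS1#2 than with shTRPS1#1, stood at 2.10 ± 0.131 RPKM with shTRPS1#1, 1.54 ± 0.243 RPKM with shTRPS1#2 and 1.79 ± 0.122 RPKM with shNT (SD, n = 3 each). Sequence-specific effects of the hairpins beyond TRPS1 were not tested.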

How the results depend on the processing

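All 5 calls with shTRPS1#1 held under the 13 alternatives. Of the 14 calls with shTRPS1#2, 8 did, as did 5 of the 9 between the hairpins. Calls with shTRPS1#2 were lost for PDK2 in 11 alternatives, SLC2A1 in 9, LDHA in 5, MB in 4, AMPD1 in 3 and PDK3 in 1 (limma, adjusted p = 0.164). No called gene of the 42 changed sign. The count of the 42 genes lower with shTRPS1#2, 4 in all, was 2 under DESeq2, 1 under limma on log2 RPKM and 2 to 5 with a library left out. The count lower with shTRPS1#1 was 1 to 4, with 4 reached without shNT replicate 1 and 2 without shTRPS1#1 replicate 3. The count higher with shTRPS1#2 than with shTRPS1#1 was 5 to 8, with 5 reached without shTRPS1#1 replicate 2, and the count lower was 1 to 2. Of the other glycogen genes, those higher with shTRPS1#1 numbered 3 under DESeq2 and 3 to 5 with a library left out, and those lower 0 to 1. Those lower with shTRPS1#2 than with shTRPS1#1 numbered 1 under DESeq2, DESeq2 size factors, library totals, limma and no count filter, and 1 to 2 with a library left out. The cause was not tested.

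Values that were not called and lay near 0 changed sign when a library was left out. With shTRPS1#1 the ranges were -0.0334 to 0.156 for PGAM2, -0.234 to 0.12 for AMPD1, -0.0017 to 0.0506 for PFKM, -0.0248 to 0.108 for SLC2A4, -0.33 to 0.0879 for PRKAA2, -0.0777 to 0.0426 for CKB and -0.0163 to 0.0084 for SLC2A3, and with shTRPS1#2 -0.0599 to 0.0067 for PKM. Between the hairpins they were -0.0378 to 0.024 for PHKA1, -0.0104 to 0.0531 for SLC2A1, -0.0352 to 0.0386 for TRPS1, -0.0101 to 0.0266 for PRKAB2 and -0.0186 to 0.0919 for EPAS1. PHKA1 also changed sign between the hairpins under DESeq2 (0.0004), DESeq2 size factors (0.0003), library totals (0.0116) and limma (0.0123), and TRPS1 under library totals (0.0038) and limma (0.0047). For the isoform ratios of both hairpins against shNT, glucose transporters ran from -0.0635 to 0.0429 and were at -0.0485 with a pseudocount of 1 RPKM, the AMPK catalytic subunit ran from -0.0089 to 0.199, and hexokinase from -0.0409 to 0.0074.

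Libraries with the same number deviated together little if at all (correlations of -0.02 to 0.05). Those with different numbers ran from -0.06 to 0.04. Such weak correlations over all genes do not settle whether the numbers pair the libraries. With the replicate block, 5 of the 42 genes were higher and 1 lower with shTRPS1#1, 12 and 4 with shTRPS1#2, and 8 and 2 between the hairpins, and the number of all genes called was 2505, 3434 and 3583 in these contrasts, beside 2285, 3213 and 3330 without it. With shTRPS1#1, 52.9% of all calls were higher with TMM factors and 46.5% with library totals only. Low counts limit the genes under about 100 counts a library (CKMT2, ALDOC, PRKAA2, PDK4, SLC2A4, AMPD1, PGAM2, MB and ALDOA). Changes the size of CKM's could be missed there. For ALDOA the low counts may also come from the gene model that shares 42.3% of its exon bases, which was not tested.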

Other observations

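Of the genes of glycolysis and pyruvate handling outside the 42, FBP2 had the largest change among those called with shTRPS1#2. FBP2, the muscle form of the phosphatase that reverses the phosphofructokinase step, was chosen after its values were seen. It stood at 0.865, 0.973 and 0.900 RPKM with shTRPS1#1 and at 1.94, 1.98 and 1.505 RPKM with shTRPS1#2, against 0.525, 0.633 and 0.587 RPKM with shNT, so the groups ordered without overlap. FBP2 was called with shTRPS1#2 (log2 fold change 1.63 ± 0.22, edgeR adjusted p = 4.99e-08) and not with shTRPS1#1 (0.66 ± 0.25, 0.0748, but 0.012 under limma), from 16 to 59 counts a library. Of the 26 tested genes of glycolysis and pyruvate handling outside the 42, 1 was higher (3.85%) and 2 lower (7.69%) with shTRPS1#1, beside 7.1% and 6.33% of all genes tested. With shTRPS1#2, 3 were higher (11.5%) and 1 lower (3.85%), beside 9.01% and 9.87% of all genes. The proton-linked monocarboxylate carriers SLC16A1 and SLC16A3, also named after their values were seen, fell with 1 hairpin each, SLC16A1 with shTRPS1#1 (-0.14 ± 0.04, edgeR adjusted p = 0.00455) and SLC16A3 with shTRPS1#2 (-0.16 ± 0.05, 0.0207). Markers of other cell types were also called. Of 3 smooth muscle markers tested, CNN1 (1.62 ± 0.31 and 1.07 ± 0.34) and LMOD1 (0.36 ± 0.11 and 0.62 ± 0.11) rose with both hairpins, at a summed level of 5.31 to 5.64 RPKM for the list with shTRPS1#1, 4.97 to 5.76 RPKM with shTRPS1#2 and 4.62 to 4.75 RPKM with shNT. Of 4 cardiac markers tested, MYH6 rose with both hairpins (1.14 ± 0.17 and 0.64 ± 0.18) and RYR2 fell with shTRPS1#2 (-0.83 ± 0.13). Of 5 neuronal markers tested, MAP2 rose with shTRPS1#2 (0.20 ± 0.03), at 30.8 ± 0.846 RPKM with shTRPS1#1, 35.2 ± 0.451 RPKM with shTRPS1#2 and 30.5 ± 1.10 RPKM with shNT (SD, n = 3 each). Their part in the changes of the 42 genes was not tested.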
